A study of Mus musculus with 3 samples.

Results

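The genes described here are digestive enzymes, zymogen granule proteins and regenerating islet-derived (Reg) proteins, the main secretory products of the acinar cells of the exocrine pancreas. A list of 31 genes was looked up by symbol among the 31053 genes of the series, and 30 were found. Amy2b, an amylase, had no row and was not analysed here. The 30 genes comprise 19 enzymes (4 trypsinogens, 3 chymotrypsinogens, 4 elastases, 2 carboxypeptidases, 5 lipases or lipase cofactors and 1 ribonuclease), 5 granule and mucosal proteins and 6 Reg genes.

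Single-cell RNA sequencing libraries (10x Genomics 3′ v3.1) had been made from viable CD45+ leukocytes sorted out of digested mouse pancreas. There was 1 library of C57BL/6J mice given PBS, 1 of mice harvested 3 days after whole β-glucan particles (3-day WGP) and 1 of mice harvested 7 days after them (7-day WGP), and these held 52464690, 56849043 and 48219246 unique molecular identifiers (UMIs) in this order. WGP are particles of β-glucan from the yeast Saccharomyces cerevisiae and were injected intraperitoneally. The study used mice of both sexes aged 6 to 8 weeks, and how many of them went into a library is not given in the sources used here. With 1 library a group there was no replicate check and no test. All intervals, in square brackets, are 95% intervals that cover counting error only, and both WGP libraries are set against the same PBS library.

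The sort was for leukocytes, so acinar RNA reached these libraries by 2 routes, and the 30 genes were measured in both. The first was a small number of barcodes rich in acinar transcripts, termed acinar barcodes. These had at least 500 UMIs, of which at least 10% came from 8 of the enzymes (Ctrb1, Cela2a, Cela3b, Cpa1, Cel, Pnlip, Clps and Prss2). PBS had 21 of them, 3-day WGP 25 and 7-day WGP 14, with 49523, 98278 and 26892 UMIs in total. The second was the RNA of all barcodes of 1 to 100 UMIs, which held 4033894, 3941221 and 4641398 UMIs. It is termed free RNA and taken as RNA outside cells by this depth limit alone, and its origin was not tested. Levels are given as CPM (UMIs of a gene per 1000000 UMIs of the same barcodes), and, since the enzymes are the bulk of acinar RNA, also as UMIs per 1000 UMIs of the 19 enzymes.

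Acinar cells make most of the protein that the pancreas secretes. Proteases are stored as inactive zymogens (trypsinogens, chymotrypsinogens, proelastases, procarboxypeptidases) in zymogen granules beside lipases, amylase and ribonuclease, and are released into the ducts. Reg proteins are small secreted C-type lectins. Reg1 (pancreatic stone protein) is made by the resting gland, whereas Reg3b (pancreatitis-associated protein) and Reg3g are known as acute-phase products of injured or inflamed pancreas and as antibacterial lectins of the gut, where IL-22 and STAT3 induce them.

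The 6 Reg genes lie beside each other on mouse chromosome 6 (GRCm38, from the first base of Reg3b, chr6:78370657-78373466, plus strand, to the last base of Reg3g, chr6:78466269-78468872, minus strand). Between them lie Reg3d (chr6:78375874-78378865, minus strand), Reg3a (chr6:78380709-78383827, plus strand), Reg2 (chr6:78395623-78408106, plus strand) and Reg1 (chr6:78422711-78428667, plus strand), so neighbouring genes on both strands are compared below. The promoters of the gene with the most Reg RNA (Reg1) and of the 3 genes that were over 2-fold higher in both acinar barcodes and free RNA at 3 days (Reg2, Reg3b and Reg3g) are printed from RefSeq (GRCm38.p6), from 250 bases before to 50 bases after the start. Capitals mark the letters TTCNNNGAA (the spacing of a STAT element), CACCTG (an E-box) and TGGGAA (or TTCCCA on the other strand). The last 2 are the letters of the sites bound by PTF1, the transcription factor complex of acinar cells, and both strands were searched.
Reg1 (chr6:78425733-78426032, + strand): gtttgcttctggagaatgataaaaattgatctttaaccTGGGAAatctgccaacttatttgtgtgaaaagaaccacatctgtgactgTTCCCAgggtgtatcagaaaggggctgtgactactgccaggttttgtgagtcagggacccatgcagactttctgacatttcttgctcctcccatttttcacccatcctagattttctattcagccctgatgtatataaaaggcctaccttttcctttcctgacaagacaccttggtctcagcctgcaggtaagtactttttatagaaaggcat
Reg2 (chr6:78404905-78405204, + strand): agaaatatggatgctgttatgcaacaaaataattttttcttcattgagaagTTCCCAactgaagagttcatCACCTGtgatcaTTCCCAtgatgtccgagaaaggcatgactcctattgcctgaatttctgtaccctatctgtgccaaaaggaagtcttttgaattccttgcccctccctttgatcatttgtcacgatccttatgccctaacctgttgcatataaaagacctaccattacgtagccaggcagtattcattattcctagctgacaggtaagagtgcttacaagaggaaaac
Reg3b (chr6:78370635-78370934, + strand): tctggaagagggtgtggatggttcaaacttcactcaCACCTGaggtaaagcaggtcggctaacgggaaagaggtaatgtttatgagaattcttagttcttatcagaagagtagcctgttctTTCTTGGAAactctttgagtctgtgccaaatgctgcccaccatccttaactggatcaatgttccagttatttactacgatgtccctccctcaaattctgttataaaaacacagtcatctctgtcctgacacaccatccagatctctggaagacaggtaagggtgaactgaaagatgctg
Reg3g (chr6:78468825-78469124, - strand): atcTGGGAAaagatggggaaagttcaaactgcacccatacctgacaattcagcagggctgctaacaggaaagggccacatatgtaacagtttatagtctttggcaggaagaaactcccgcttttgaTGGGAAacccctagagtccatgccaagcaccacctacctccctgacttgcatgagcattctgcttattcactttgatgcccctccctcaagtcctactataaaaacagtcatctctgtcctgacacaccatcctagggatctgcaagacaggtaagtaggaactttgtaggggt

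TTCNNNGAA was found in the promoter of Reg3b but in none of the other 3, and in 8.30% of 32851 mouse promoters of this length. A Reg3d match overlaps a TTCCCA match. CACCTG was in Reg2 and Reg3b (20.2% of all promoters), and TGGGAA or TTCCCA in Reg1, Reg2 and Reg3g (25.6%). Of the 23 genes of the list with a promoter sequence of this length, 4 held TTCNNNGAA, 14 held CACCTG and 17 held TGGGAA or TTCCCA. These are matches of letters in a short window and not measured binding.

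The acinar barcodes were dominated by acinar transcripts. The 30 genes made up 71.9% of their UMIs in PBS, 73.1% at 3 days and 76.2% at 7 days, against 1.57%, 0.868% and 1.56% of free RNA, and 17, 18 and 19 of their 25 most abundant genes were on the list. All 5 ductal, 3 endothelial and 6 intestinal epithelial markers were at 0 in the acinar barcodes of every library, the 7 islet markers had 1, 0 and 0 UMIs, and Ptprc, which encodes the CD45 used in the sort, had 0, 2 and 0. The 5 macrophage markers had 18, 8 and 10 UMIs (Csf1r and Adgre1 at 0), the 4 B cell markers 2, 6 and 0 and the 4 erythroid markers 10, 7 and 2. Igkc, an immunoglobulin gene outside these marker lists, was among the 25 most abundant genes in 3-day WGP only. It ranked there above Reg2 and Reg3b, and its source was not tested. No acinar barcode sequence was shared between libraries, and of the 6622, 5635 and 5434 barcodes with at least 500 UMIs, 13 were shared by PBS and 3-day WGP, 3 by PBS and 7-day WGP and 7 by both WGP libraries. Mitochondrial UMIs passed 30% in 3, 1 and 0 acinar barcodes. Median depth was 1399, 2542 and 928 UMIs. The 8 genes made up a median of 41.4%, 41.2% and 41.7% of an acinar barcode, and the highest share outside the rule was 9.63%, 9.25% and 4.97%, with 21, 6 and 0 barcodes between 5% and 10%. Because the rule uses 8 enzymes, the level of the enzyme sum in acinar barcodes is partly fixed by it, and the Reg genes and the other 11 enzymes are the measures it did not use.

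**Figure D1:**
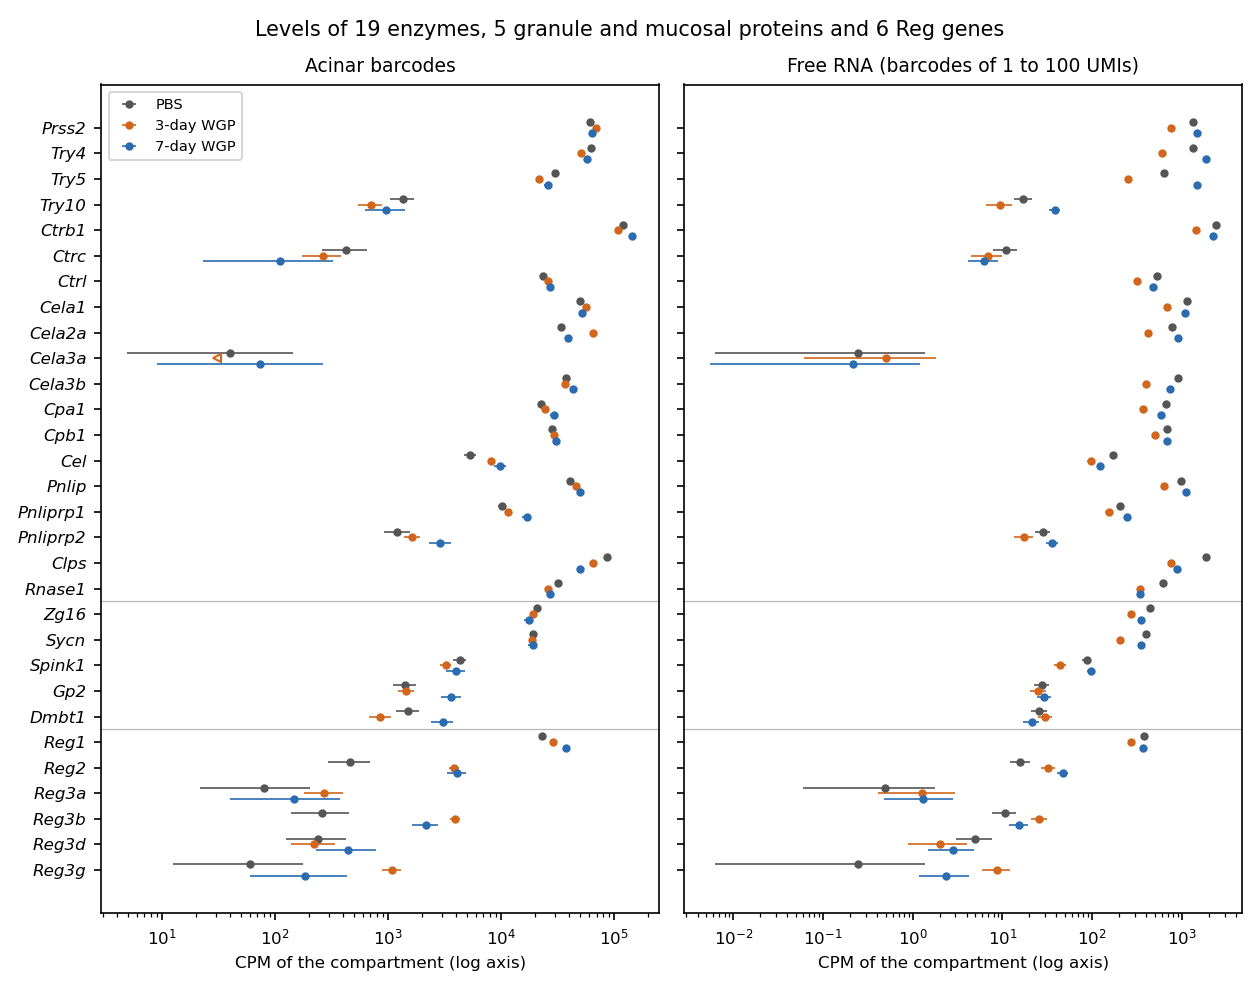
Level of each of the 30 genes in acinar barcodes (left) and free RNA (right), in CPM on a log axis, by library. Points are the value of 1 library, bars its exact Poisson 95% interval, and an open triangle the limit of 3 counts for a gene at 0. Reg2, Reg3b and Reg3g lie higher in 3-day WGP than in PBS on both sides, while most enzymes lie together on the left and lower in 3-day WGP on the right.

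In acinar barcodes, Reg2 and Reg3b were among the scarcest transcripts of the list in PBS and were 8.28-fold and 15-fold higher 3 days after WGP, and 8.73-fold and 8.22-fold higher at 7 days. Reg3g was 18-fold higher at 3 days. Reg1, the abundant member, was 1.23-fold and 1.61-fold higher. The 11 enzymes that the barcode rule did not use stood together at 0.938 and 1.01 times their PBS level.

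Reg2 was at 464 CPM in PBS, 3846 at 3 days and 4053 at 7 days (23, 378 and 109 UMIs). Both WGP libraries lay above PBS, by a log2 ratio of 3.05 [2.44 to 3.73] and 3.13 [2.47 to 3.84], and they did not differ from each other beyond counting error (0.076 [-0.25 to 0.39]). Reg3b was at 263 CPM in PBS, 3928 at 3 days and 2157 at 7 days (13, 386 and 58 UMIs), and its ratios to PBS were 3.90 [3.11 to 4.83] and 3.04 [2.15 to 4.03]. It was highest at 3 days and lower at 7 days than at 3 days (-0.86 [-1.29 to -0.46]). Reg3g was at 60.6 CPM in PBS, 1089 at 3 days and 186 at 7 days (3, 107 and 5 UMIs). Its ratio at 3 days was 4.17 [2.58 to 6.47] and rests on 3 UMIs in PBS, and at 7 days the interval included no difference (1.62 [-0.74 to 4.30]). The 7-day value of Reg3g was below the 3-day value (-2.55 [-4.20 to -1.28]).

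Reg3a, a close relative of Reg3b in the same cluster, had 4, 27 and 4 UMIs, or 80.8 CPM in PBS, 275 at 3 days and 149 at 7 days. It was higher at 3 days (1.77 [0.25 to 3.74]), and the interval at 7 days included no difference (0.88 [-1.54 to 3.31]). Reg3d had 12, 22 and 12 UMIs, or 242 CPM in PBS, 224 at 3 days and 446 at 7 days, and neither ratio was separated from 0 by its interval (-0.11 [-1.19 to 1.03] and 0.88 [-0.40 to 2.16]). The 3-day interval also leaves room for a difference of over 2-fold in either direction, and the 7-day interval for one of over 2-fold upward. Reg1 was at 23181 CPM in PBS, 28552 at 3 days and 37409 at 7 days (1148, 2806 and 1006 UMIs), so PBS was lowest and 7-day WGP highest (0.30 [0.20 to 0.40] and 0.69 [0.57 to 0.81]).

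Set against the enzymes of the same barcodes, the sum of Reg2 and the 4 Reg3 genes was 1.72 in PBS, 14.4 at 3 days and 10.4 at 7 days per 1000 enzyme UMIs. The log2 ratios of this quantity were 3.07 [2.68 to 3.49] and 2.60 [2.16 to 3.06]. For all 6 Reg genes, which Reg1 dominates, the values were 37.5 in PBS, 58.4 at 3 days and 66.2 at 7 days per 1000, at ratios to PBS of 0.64 [0.54 to 0.73] and 0.82 [0.70 to 0.94]. Both sums were higher in both WGP libraries. The share of the Reg sum taken by Reg2 and the Reg3 genes therefore differed too, from 55 of 1203 in PBS to 920 of 3726 at 3 days and 188 of 1194 at 7 days.

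**Figure D2:**
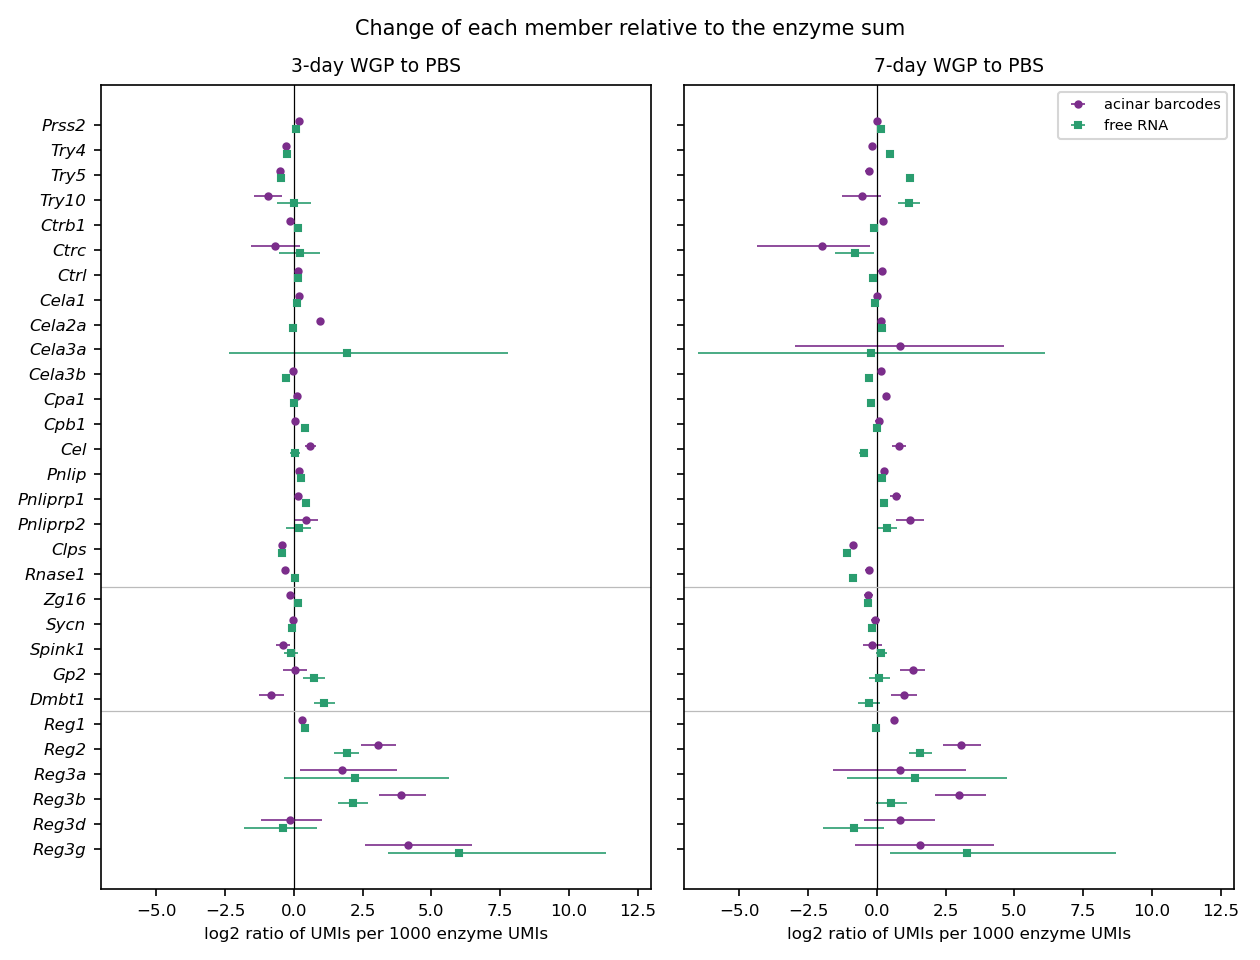
Log2 ratio of each gene's UMIs per 1000 enzyme UMIs, 3-day (left) and 7-day (right) WGP to PBS, in acinar barcodes (circles) and free RNA (squares), with exact conditional 95% intervals. Genes with a library at 0 have no point. Reg2 and Reg3b lie between 0.53 and 3.90 in every panel, while Clps lies between -1.08 and -0.43.

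For Reg3b the difference was spread over many acinar barcodes, though unevenly. At least 1 Reg3b UMI was seen in 5 of 21 acinar barcodes of PBS, 23 of 25 at 3 days and 8 of 14 at 7 days. After each barcode was thinned to 500 UMIs these became 0 of 21 (Clopper-Pearson 0 to 16.1%, or a share of up to 14.3% by the floor of 3 counts), then 19 of 25 (76%, 54.9 to 90.6%) and 6 of 14 (42.9%, 17.7 to 71.1%). Barcodes with B cell markers, which should lack Reg RNA, gave 0 of 2087, 0 of 1257 and 0 of 618 after the same thinning (by the floor of 3 counts up to 0.144%, 0.239% and 0.485%), and 2, 5 and 2 barcodes without thinning, at median depths of 3989, 6050 and 5235.5 UMIs.

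Per acinar barcode, Reg2 and Reg3 UMIs per 1000 enzyme UMIs ran from 0 through a median of 1.26 to 9.26 in PBS, from 0 through 9.66 to 41.4 at 3 days and from 0 through 5.38 to 23.7 at 7 days. The libraries overlapped, and 13 of 25 barcodes in 3-day WGP and 4 of 14 in 7-day WGP lay above the highest PBS barcode. In 3-day WGP, 2 barcodes of 13831 and 8657 UMIs held 220 of the 386 Reg3b UMIs. Without the 2 barcodes richest in Reg3b in each library, the log2 ratio of Reg2 and Reg3 per 1000 enzyme UMIs was 2.31 [1.83 to 2.82] at 3 days and 1.97 [1.41 to 2.55] at 7 days. With the mitochondrial and ribosomal limits of the study's methods the ratios were 3.08 and 2.61, and with every barcode weighted equally they were 2.66 and 1.86.

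Reg1 was less even at 3 days, where its ratio depended on which barcodes were removed. Over all barcodes its log2 ratio per enzyme UMI was 0.30 [0.20 to 0.40] at 3 days and 0.64 [0.52 to 0.76] at 7 days. Without the 2 barcodes richest in Reg3b in each library these were -0.024 [-0.14 to 0.096] and 0.51 [0.36 to 0.65]. Without the 2 richest in Reg1 itself they were 0.13 [0.0057 to 0.25] and 0.71 [0.55 to 0.87]. Across the 25 acinar barcodes of 3-day WGP the levels of Reg1 and Reg2 per enzyme UMI had a Spearman rho of 0.73, and those of Reg2 and Reg3b 0.57. In PBS (21 barcodes) and 7-day WGP (14) the first was 0.076 and 0.66. These describe barcodes of 1 library, which share their depth and denominator.

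**Figure D3:**
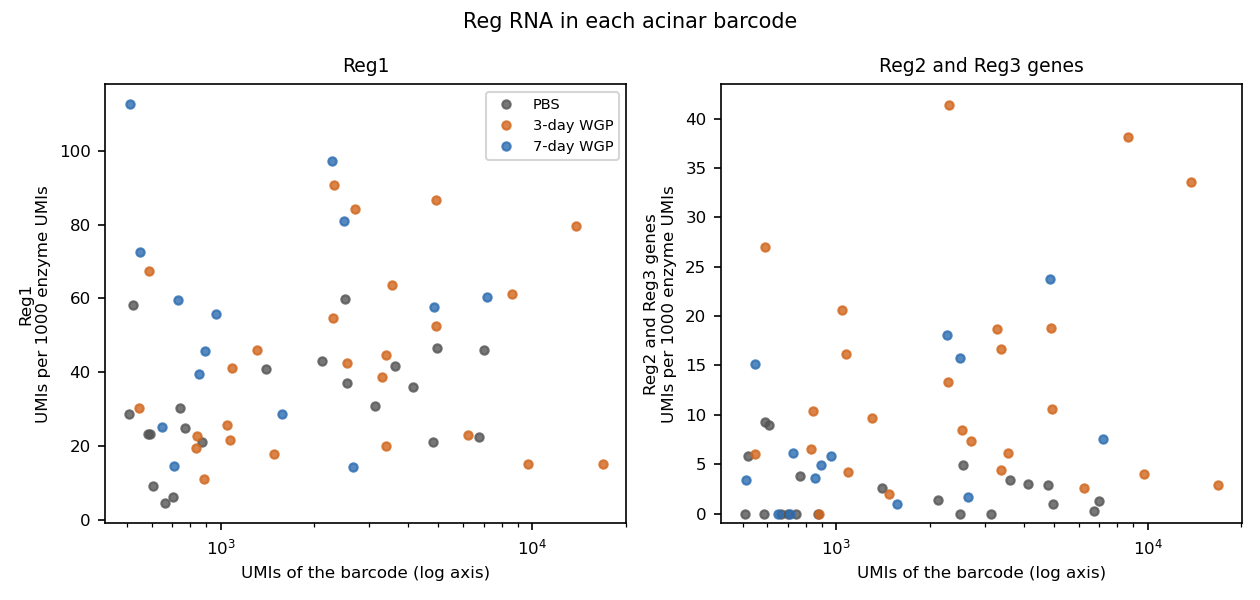
UMIs of Reg1 (left) and of Reg2 and the 4 Reg3 genes (right) per 1000 enzyme UMIs in each acinar barcode, against its UMIs on a log axis. Each point is 1 barcode of the 21, 25 and 14 in PBS, 3-day WGP and 7-day WGP, without error bars, and on the right 13 points of 3-day WGP and 4 of 7-day WGP lie above all PBS points.

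The enzymes differed little in acinar barcodes. Their sum, which the barcode rule partly fixes, was 647134 CPM in PBS, 649606 at 3 days and 670571 at 7 days, and the 11 enzymes that the barcode rule did not use differed by log2 ratios of -0.092 [-0.12 to -0.060] and 0.013 [-0.031 to 0.056]. By class, log2 CPM ratios at 3 and 7 days were -0.12 and -0.074 for trypsinogens, -0.082 and 0.26 for chymotrypsinogens, 0.39 and 0.15 for elastases, 0.071 and 0.24 for carboxypeptidases, and -0.12 and -0.16 for lipases with their cofactor. Each of these enzyme classes holds a gene of the barcode rule or more, so their ratios are not independent of the selection. The 5 granule and mucosal proteins, which the rule did not use, were at -0.12 and -0.00034. Every class stayed inside 2-fold, and so did the 6 Reg genes summed, which Reg1 dominates (0.64 and 0.87). Reg2 and the Reg3 genes without Reg1 were at 3.08 and 2.65.

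Each class is shown by its member with the most UMIs in acinar barcodes. Ctrb1, the chymotrypsinogen that led all genes in every library, was at 119702 CPM in PBS, 109139 at 3 days and 144244 at 7 days. Prss2, a trypsinogen, was at 61305 CPM in PBS, 69863 at 3 days and 63179 at 7 days, and Cela1, a proelastase, at 49856 CPM in PBS, 56818 at 3 days and 52060.1 at 7 days. All 3 kept within 1.21-fold of PBS. Ctrb1 and Prss2, unlike Cela1, are genes of the barcode rule, so their levels here are not independent of the selection. Cpb1, procarboxypeptidase B, was at 28532 CPM in PBS, 29254 at 3 days and 30864 at 7 days. Rnase1, the pancreatic ribonuclease, was at 32167 CPM in PBS, 26089 at 3 days and 27257 at 7 days, lower than PBS at both times (-0.30 [-0.39 to -0.21] and -0.24 [-0.37 to -0.11]). Zg16, a lectin of the granule membrane, was at 20980.2 CPM in PBS, 19241 at 3 days and 17589 at 7 days and was slightly lower at both times as well (-0.12 [-0.23 to -0.014] and -0.25 [-0.41 to -0.096]).

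Clps was lower than PBS at both times. It encodes colipase, the protein that lets pancreatic lipase work on bile-coated fat droplets. Clps was at 86808 CPM in PBS, 64816 at 3 days and 49532 at 7 days, so the order of the libraries was the reverse of that of Reg1, at -0.42 [-0.48 to -0.37] and -0.81 [-0.90 to -0.72] on the log2 scale. Pnlip, the lipase it serves, was at 40446 CPM in PBS, 46196 at 3 days and 49978 at 7 days, slightly above PBS at both times (0.19 [0.12 to 0.27] and 0.31 [0.20 to 0.41]). Per 1000 enzyme UMIs the Clps ratio was -0.43 and -0.86. It was -0.31 and -0.64 without the 2 barcodes richest in Clps in each library, and with equal weight for each barcode the 3-day ratio was 0.085 and the 7-day ratio -0.56. A lower Clps level at 3 days in acinar barcodes thus depended on the weighting. Clps and Pnlip are also genes of the barcode rule, so their levels in acinar barcodes are not independent of the selection.

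Some other members are named after their values were seen. Cela2a, a proelastase, was at 33863 CPM in PBS, 65518 at 3 days and 39231 at 7 days, close to 2-fold above PBS at 3 days (0.95 [0.87 to 1.03]), but 2 barcodes held 3516 of its 6439 UMIs there, and without the 2 richest barcodes of each library the ratio per enzyme UMI was 0.39 [0.29 to 0.49]. Those 2 barcodes, of 16874 and 9709 UMIs, were low in Reg2 and Reg3 RNA (2.90 and 3.95 per 1000 enzyme UMIs). Cela2a is also a gene of the barcode rule, so its level here is not independent of the selection. At 7 days, Gp2, the main glycoprotein of the granule membrane, was 2.55-fold higher (70, 143 and 97 UMIs), Dmbt1, a mucosal scavenger receptor cysteine-rich protein, 2.04-fold higher (74, 84 and 82 UMIs) and Pnliprp2, a lipase, 2.39-fold higher (60, 161 and 78 UMIs). Without their 2 richest barcodes per library the 7-day log2 ratios per enzyme UMI of these 3 genes were 1.61, 1.72 and 1.19. Ctrc, chymotrypsinogen C, had 21, 26 and 3 UMIs, and Cela3a, with 2, 0 and 2 UMIs, was too scarce for a ratio at 3 days. In all, Cela3a was the 1 member below 20 UMIs over PBS and 3-day WGP, and Cela3a, Reg3a and Reg3g were the 3 below 20 UMIs over PBS and 7-day WGP.

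Counts of members past 2-fold were read against all genes with at least 20 UMIs in the same 2 libraries. In acinar barcodes at 3 days, 4 of 29 members were at least 2-fold higher (Reg2, Reg3a, Reg3b and Reg3g) against 10.0% of the 219 genes measured, and 0 of 29 at least 2-fold lower against 4.57%. At 7 days, 5 of 27 were higher (Reg2, Reg3b, Gp2, Dmbt1 and Pnliprp2) against 6.21% of 161 genes, and 1 (Ctrc) was lower against 15.5%. By group, the members higher at 3 days were 4 of the 6 Reg genes and 0 of the 18 enzymes and 5 granule and mucosal proteins measured. The barcode rule selected on some of these enzymes, and the sum of the 19 enzymes was already 647134 CPM in PBS. That sum could not be 2-fold higher, so the difference in counts between Reg genes and enzymes was partly fixed beforehand. A single enzyme could still pass 2-fold, as Pnliprp2 did at 7 days. Reg3a, Reg3b and Reg3g, with 4, 13 and 3 UMIs in PBS, reached 20 UMIs only through the 3-day library, so their calls follow in part from the minimum. The same holds for Reg3b at 7 days. Ctrc, with 21 UMIs in PBS and 3 at 7 days, reached the minimum only through PBS, so its lower call follows in part from the minimum too. The median log2 ratio was 0.042 over the 29 members and -0.096 over all 219 genes. At 7 days, with Reg3a and Reg3g below 20 UMIs, it was 0.21 over the 27 members and -0.19 over the 161 genes.

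In free RNA the enzymes behaved otherwise. Their sum was 14324 CPM in PBS, 7766 at 3 days and 14280.4 at 7 days, so the 3-day library held 0.542 times the PBS level (-0.88 [-0.90 to -0.86]) and the 7-day library a level near that of PBS (-0.0044 [-0.021 to 0.012]). At 3 days all 18 enzymes with at least 20 UMIs were lower, by log2 ratios from -1.33 (Try5) to -0.43 (Pnliprp1). The median over the 10817 genes measured was 0.10, and the share of these genes below PBS was not counted. Ctrc rested on 44 UMIs in PBS and 27 at 3 days, and the intervals of its 2 levels overlapped. Ctrb1 was at 2396 CPM in PBS, 1431 at 3 days and 2244 at 7 days, Prss2 at 1324 CPM in PBS, 762 at 3 days and 1472 at 7 days and Cela1 at 1154 CPM in PBS, 683 at 3 days and 1099 at 7 days. Cpb1 was at 689 CPM in PBS, 499 at 3 days and 682 at 7 days, Rnase1 at 618 CPM in PBS, 345 at 3 days and 339 at 7 days and Zg16 at 447 CPM in PBS, 269 at 3 days and 354 at 7 days. All 6 had their lowest value or a value near it in 3-day WGP, and Rnase1 was equally low at 7 days.

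Free RNA cannot tell fewer acinar cells in the digest from less RNA in each of them, or either from a larger amount of other free RNA. The level also depended on barcode depth. In barcodes of 11 to 50 UMIs the enzymes were at 17159, 11624 and 16894 CPM, and in those of 2 to 10 UMIs at 7868, 4342 and 2195 CPM, so that 7-day WGP lay level with PBS in the first and far below it in the second. Barcodes of 1 UMI gave 3219, 1990 and 1951 CPM, and those of 51 to 100 UMIs 27804, 16608 and 22272 CPM. PBS had the highest value in each of these depth classes, but in that of 11 to 50 UMIs its interval overlapped that of 7-day WGP. The 7-day level near PBS thus holds for the pooled barcodes and for that class, and not for the other depth classes. The mix of depths also differed, with 573340, 1100076 and 350353 UMIs in barcodes of 2 to 10 UMIs. In barcodes of over 100 and under 500 UMIs, outside the range used for free RNA, 3-day WGP was the highest, at 27158 CPM against 24071 in PBS and 17334 in 7-day WGP. Markers of other cells also differed in free RNA. The 4 erythroid markers summed to 11999, 7295 and 7005 CPM, the 7 islet markers to 241, 50.5 and 142 CPM, the 5 ductal markers to 52.8, 248 and 56.2 CPM and the 5 macrophage markers to 7197, 9475 and 12510 CPM, and their part in the enzyme levels was not tested.

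Reg2, Reg3b and Reg3g did not share the lower level at 3 days. Reg2 was at 15.9 CPM in PBS, 32.5 at 3 days and 47.0 at 7 days (64, 128 and 218 UMIs), higher after WGP by 1.03 [0.59 to 1.49] and 1.57 [1.16 to 1.99] on the log2 scale. Reg3b was at 10.7 CPM in PBS, 25.6 at 3 days and 15.3 at 7 days (43, 101 and 71 UMIs), with ratios of 1.27 [0.74 to 1.82] and 0.52 [-0.045 to 1.10], the second of which included no difference. Reg3g had 1, 34 and 11 UMIs, or 0.248 CPM in PBS, 8.63 at 3 days and 2.37 at 7 days. It was higher at both times by ratios with wide intervals (5.12 [2.55 to 10.47] and 3.26 [0.47 to 8.68]), since PBS had 1 UMI. Reg1 was at 378 CPM in PBS, 271 at 3 days and 371 at 7 days, lower than PBS at 3 days (-0.48 [-0.59 to -0.36]) and level with it at 7 days (-0.025 [-0.13 to 0.075]). Reg3d had 20, 8 and 13 UMIs (-1.29 [-2.68 to -0.043] and -0.82 [-1.95 to 0.26]), the only Reg gene with a ratio below -1, and Reg3a had 2, 5 and 6 UMIs, too few for a direction.

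Per 1000 enzyme UMIs, Reg2 and the Reg3 genes stood at 2.25 in PBS, 9.02 at 3 days and 4.81 at 7 days in free RNA, 2.00 [1.70 to 2.31] and 1.10 [0.80 to 1.40] above PBS on the log2 scale. The 6 Reg genes stood at 28.6 in PBS, 44.0 at 3 days and 30.8 at 7 days, with ratios of 0.62 [0.51 to 0.72] and 0.11 [0.012 to 0.20]. The second of these turned to -0.15 [-0.25 to -0.060] when the 11 enzymes outside the barcode rule were the denominator and was 0.82 [0.62 to 1.02] in barcodes of over 100 and under 500 UMIs, so no direction is given for the 6 genes together at 7 days. For Reg2 and the Reg3 genes the ratios stayed above 0 under every alternative run, from 1.80 to 2.77 at 3 days and from 0.84 to 1.96 at 7 days. All ratios per enzyme UMI at 3 days also reflect the lower enzyme sum. In CPM the 6 Reg genes summed to 410 in PBS, 342 at 3 days and 440 at 7 days, thus below PBS at 3 days. Reg2 and the Reg3 genes summed to 32.2 CPM in PBS, 70.0 at 3 days and 68.7 at 7 days, above PBS at both times.

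Among the enzymes the trypsinogens, chosen after their values were seen, were the class with the highest 7-day ratio in free RNA. Try5 was at 637 CPM in PBS, 253 at 3 days and 1465 at 7 days there, 2.30-fold above PBS, Try4 at 1324 CPM in PBS, 609 at 3 days and 1839 at 7 days and Try10 at 17.1 CPM in PBS, 9.39 at 3 days and 38.1 at 7 days. The class had a log2 ratio of -1.02 [-1.06 to -0.97] at 3 days and 0.54 [0.51 to 0.57] at 7 days. In acinar barcodes Try5 was at 30329 CPM in PBS, 21755 at 3 days and 25844 at 7 days, and no direction is given for it there at 7 days. Its ratio to PBS was -0.23 [-0.36 to -0.10], but with 51.7% of its UMIs in 2 barcodes in PBS and 50.9% in 7-day WGP, the ratio per enzyme UMI was -0.021 [-0.21 to 0.17] without the 2 richest barcodes of each library and 0.39 without the 2 richest in Reg3b. Clps was at 1856 CPM in PBS, 748 at 3 days and 874 at 7 days in free RNA, lower than PBS at both times (-1.31 [-1.37 to -1.25] and -1.09 [-1.14 to -1.03]). Per 1000 enzyme UMIs, the Clps ratios were -0.43 and -1.08 in free RNA beside -0.43 and -0.86 in acinar barcodes, where the 3-day value depended on the weighting. Within 7-day WGP, Clps per enzyme UMI was higher in acinar barcodes than in free RNA (0.27 [0.18 to 0.36]). Rnase1 was lower per enzyme UMI at 7 days only (-0.86 [-0.95 to -0.77], against 0.045 [-0.052 to 0.14] at 3 days). Cela2a showed no such excess in free RNA as in acinar barcodes at 3 days (-0.021 [-0.11 to 0.066] per enzyme UMI).

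Past 2-fold in free RNA at 3 days, 3 of 28 members were higher (Reg2, Reg3b and Reg3g) against 4.68% of 10817 genes, and 5 were lower (Try4, Try5, Cela3b, Clps and Reg3d) against 3.02%. The lower count was 8 of 28, against 3.74% of genes, once the median of all genes, at 0.10, was set to no change. Without the minimum of 20 UMIs the higher count was 5 of 30 at 3 days and 5 of 30 at 7 days, against 7.27% and 7.22% of the genes with any UMI. At 7 days 3 of 27 were higher (Reg2, Try5 and Try10) against 6.83% of 10910 genes and 1 was lower (Clps) against 4.51%. The median log2 ratio of the members was -0.75 at 3 days and -0.03 at 7 days, beside 0.10 and 0.11 over all genes. Reg3g, with 1 UMI in PBS, reached the minimum only through the 3-day library. Reg3d, with 20 UMIs in PBS and 8 at 3 days, reached it only through PBS.

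The ratio of Reg to enzyme UMIs was also compared between kinds of barcode within each library. Acinar barcodes and free RNA did not hold Reg2 and Reg3 RNA in the same ratio to the enzymes in the WGP libraries. The log2 ratio of acinar barcodes to free RNA was -0.39 [-0.87 to 0.075] for PBS, 0.68 [0.48 to 0.88] at 3 days and 1.12 [0.85 to 1.38] at 7 days. Leukocyte barcodes with a Ptprc UMI and under 10% of UMIs in the 8 genes (5033, 4489 and 4450 of them) had 128, 81 and 34 UMIs of Reg2 and Reg3, or 5.08 in PBS, 9.51 at 3 days and 5.30 at 7 days per 1000 enzyme UMIs. At 3 days this was again above PBS (0.91 [0.49 to 1.32]), but at 7 days it was level with PBS (0.062 [-0.53 to 0.62]).

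The PBS value of the leukocyte barcodes was weighted by 1 barcode. Among barcodes of at least 500 UMIs, those with 1% to 10% of UMIs in the 8 genes had 7.50, 8.15 and 3.73 Reg2 and Reg3 UMIs per 1000 enzyme UMIs. A PBS barcode of 16897 UMIs held 42 of the 105 Reg2 and Reg3 UMIs there (24 of Reg2, 11 of Reg3b, 6 of Reg3g and 1 of Reg3a), and without it the PBS value was 4.65. With the top barcode of each library removed, the ratios of the leukocyte barcodes were 1.40 [0.94 to 1.86] at 3 days and 0.49 [-0.15 to 1.09] at 7 days. In barcodes with under 0.1% of UMIs in the 8 genes the values were 3.24, 10.5 and 5.24, and in those with 0.1% to 1% they were 3.08, 8.75 and 5.94. The 3-day library was highest in all 4 bands, and the 7-day library was above PBS in 3 of the 4, although the intervals of 3-day WGP and PBS overlapped in the band of 1% to 10% and those of 7-day WGP and PBS in all but the top band.

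**Figure D4:**
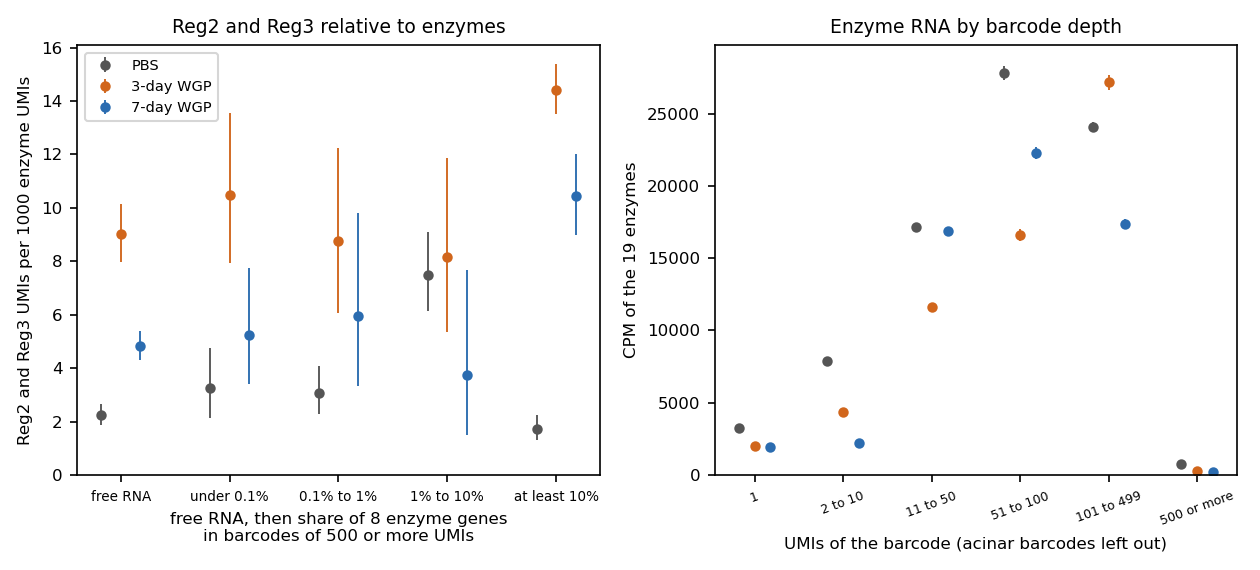
Left, Reg2 and Reg3 UMIs per 1000 enzyme UMIs in free RNA and in barcodes of at least 500 UMIs by the share of the 8 enzyme genes. Right, CPM of the 19 enzymes by barcode depth, acinar barcodes left out. Points are 1 library each and bars exact Poisson 95% intervals. On the left 3-day WGP is the highest library in every band, from 8.15 to 14.4, and on the right PBS is the highest in each depth class except that of over 100 and under 500 UMIs.

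Lists of related genes set the members in context. Of 17 further acinar secretory genes (other trypsinogens, amylases and granule proteins), 10 had at least 20 UMIs in acinar barcodes at each contrast. At 3 days 1 was 2-fold higher (Amy2a2) and 1 lower (Prss3), against 10.0% and 4.57% of all genes, and at 7 days 1 was higher (Gm10334) and 0 lower, against 6.21% and 15.5%. In free RNA 0 were higher and 4 lower at 3 days (Prss3, Amy2a5, Pla2g1b and Tff2, of 10), against 4.68% and 3.02% of all genes, and 1 was higher and 0 lower at 7 days (Gm5771, of 13), against 6.83% and 4.51%. None of the 6 acinar transcription factors and none of the 7 genes of IL-22, IL-6 and STAT3 signalling reached 20 UMIs in acinar barcodes, so they could not be compared there. Of 7 endoplasmic reticulum genes, 3 and 2 reached it in acinar barcodes, where Pdia2, a disulfide isomerase of acinar cells, was 2-fold higher at 7 days (background 6.21%), and 7 in free RNA, where 0 passed 2-fold at either time.

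In free RNA, which mixes all cell types, 6 of the 7 genes of IL-22, IL-6 and STAT3 signalling had at least 20 UMIs. At 3 days 1 was 2-fold higher (Socs3) and 0 lower, against 4.68% and 3.02% of all genes. At 7 days 1 was higher (Socs3) and 1 lower (Lcn2), against 6.83% and 4.51%. Socs3, the feedback inhibitor induced by STAT3, was at 41.6, 93.1 and 197 CPM (1.16 [0.89 to 1.43] and 2.24 [2.00 to 2.49]). Stat3 itself was at 63.7, 78.9 and 116 CPM, and Lcn2, an antibacterial siderophore-binding protein, at 66.7, 69.5 and 22.8 CPM. Il22ra1, the epithelial subunit of the IL-22 receptor, had 0 UMIs there in all 3 libraries. Rbpjl, a subunit of PTF1, had 18, 8 and 6 UMIs (-1.14 [-2.55 to 0.14] and -1.79 [-3.41 to -0.39]). Bhlha15 (Mist1), a factor of acinar and of plasma cells, had 19, 40 and 8 UMIs, higher at 3 days and lower at 7 days (1.11 [0.29 to 1.98] and -1.45 [-2.85 to -0.19]).

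Some members share sequence with other genes, which bears on how their reads were assigned. Of all windows of 100 bases in the last 500 bases of the longest coding transcript, 23.4% were identical between Try4 and Try5, 9.73% of those of Try10 were in Gm5409, and 4.24% of Cela3a were in Cela3b. Cela2a shared 52.6% with a transcript of Ctrc, whose annotated span covers Cela2a on chromosome 4. Levels of these genes, single trypsinogens above all, are uncertain. None of the windows of the 6 Reg genes, Clps or Prss2 occurred in another gene.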

How the data were processed

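The authors sorted viable CD45+ cells from pancreas digested with collagenase, hyaluronidase and DNase, made 10x Genomics 3′ v3.1 libraries and counted UMIs with Cell Ranger 3.1.0 against mm10. Seurat is also named in the submitters' processing notes. The deposited values are whole-number counts of UMIs per gene and barcode, unfiltered and not normalized.

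No cell calling, doublet caller or batch correction was applied. Acinar barcodes with a Ptprc UMI were removed as an alternative. UMIs were summed over acinar, free RNA and Ptprc barcodes of each library. CPM used all UMIs of those barcodes, and values per 1000 enzyme UMIs used the 19 enzymes present. The plan had named 20, with Amy2b. Intervals were exact Poisson for levels, exact conditional binomial (Clopper-Pearson) for ratios, with enzyme UMIs taken as fixed exposure, at 95%. A library at 0 was set to a floor of 3 counts for calls. A gene was called when its CPM differed by 2-fold or more and it had at least 20 UMIs over both libraries. The interval and call code was tested on simulated data. Barcode shares were thinned to 500 UMIs. B cell barcodes had at least 3 UMIs of Cd79a, Cd79b and Ms4a1 and none of Cd3e, Cd3d and Csf1r.

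The members, lists and rules were chosen with earlier results of these data known. By rule, values in every library were given for the 6 Reg genes, for the member with most acinar UMIs in each other class, and for members past 2-fold in the same direction in both compartments. Coordinates came from GENCODE vM21 (GRCm38), matched by gene ID for all 30 members, and promoters from RefSeq GRCm38.p6. Alternatives varied the share, depth and quality limits of acinar barcodes (30% mitochondrial and 40% ribosomal-protein UMIs, the limits of the study's methods), the weighting of barcodes, the depth range of free RNA, the enzymes used as denominator and the minimum count. Python 3.11.15, numpy 2.4.6, scipy 1.17.1 and pandas 2.3.3 were used.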

Additional observations from a re-analysis of the deposited data

Results flagged for a closer look

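These genes and classes differed from PBS in opposite directions at 3 and 7 days, with both 95% counting intervals away from 0. The difference between the times was not tested, since each is 1 library, and all share the PBS library. Values are log2 CPM ratios to PBS.

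In acinar barcodes Ctrb1 was at -0.13 at 3 days and 0.27 at 7 days, and the chymotrypsinogen class, which Ctrb1 leads, was at -0.082 at 3 days and 0.26 at 7 days. Without the 2 barcodes richest in Ctrb1 in each library its ratios per enzyme UMI were -0.039 [-0.094 to 0.016] and -0.020 [-0.10 to 0.061]. Ctrb1 is also a gene of the barcode rule. Dmbt1 was at -0.81 at 3 days and 1.03 at 7 days. In PBS, 46 of its 74 UMIs lay in 2 barcodes, and without the 2 richest barcodes of each library its ratios per enzyme UMI were 0.33 [-0.33 to 1.03] and 1.72 [0.98 to 2.47], so the lower 3-day value rested on those barcodes.

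In free RNA the trypsinogens were at -1.02 at 3 days and 0.54 at 7 days. Among them Prss2 was at -0.80 at 3 days and 0.15 at 7 days, Try4 at -1.12 at 3 days and 0.47 at 7 days, Try5 at -1.33 at 3 days and 1.20 at 7 days and Try10 at -0.87 at 3 days and 1.16 at 7 days. Cela2a was at -0.90 at 3 days and 0.19 at 7 days. The lipases Pnlip, Pnliprp1 and Pnliprp2 were at -0.63 at 3 days and 0.17 at 7 days, at -0.43 at 3 days and 0.25 at 7 days, and at -0.70 at 3 days and 0.36 at 7 days. The 6 Reg genes summed were at -0.26 at 3 days and 0.10 at 7 days. Per 1000 enzyme UMIs the trypsinogens were at -0.13 [-0.18 to -0.089] and 0.55 [0.52 to 0.58], so the opposite directions remained for this class, and the 6 Reg genes at 0.62 and 0.11.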

How the results depend on the processing

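All values are log2 ratios to PBS unless said otherwise. Reg2 and Reg3 per enzyme UMI kept their direction in acinar barcodes and free RNA at both times under every alternative run, and the acinar ratio of all 6 Reg genes did so too. An alternative that left the 95% counting interval of the reported value is given here, and the cause was not tested where none is stated.

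In acinar barcodes, the 6 Reg genes at 3 days moved from 0.64 to 0.93 without the deepest barcode of each library, 0.73 over the 11 enzymes outside the barcode rule and 0.21 without the 2 barcodes richest in Reg3b, a removal that at 7 days moved 0.82 to 0.61. Reg2 and Reg3 moved from 3.07 and 2.60 to 2.31 and 1.97 with that removal and to 2.66 and 1.86 with equal weight for each barcode. Y-chromosome transcripts without Xist were seen in 1 acinar barcode each of PBS and 3-day WGP, which gave 2.21 (6 Reg genes) and 6.47 (Reg2 and Reg3) at 3 days. No such barcode was in 7-day WGP, and no acinar barcode had Xist, so the same comparisons there were not possible. The 3-day values set 1 barcode against 1. The PBS barcode held 1 UMI of Reg2 and Reg3 RNA, of Reg3d, so the value of 6.47 rests on that UMI.

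In free RNA, barcodes of 1 to 10 UMIs gave 0.81 and 0.47 for the 6 Reg genes per enzyme UMI (0.62 and 0.11 as reported) and 2.77 and 1.96 for Reg2 and Reg3 (2.00 and 1.10). Barcodes of over 100 and under 500 UMIs gave 0.92 and 0.82 for the 6 Reg genes. At 7 days the 6 Reg genes were at -0.15 over the 11 enzymes, which reverses the direction, and at 0.32 over the 15 enzymes without trypsinogens. Enzyme CPM at 3 days, -0.88, was -0.67 and -0.59 in barcodes of 1 to 10 and 11 to 100 UMIs, -0.85 for the 11 enzymes, -1.03 over genes other than members and mitochondrial genes and reversed to 0.17 in barcodes of over 100 and under 500 UMIs. At 7 days, -0.0044 became 0.054, -1.35 and -0.091 in barcodes of 1 to 50, 1 to 10 and 11 to 100 UMIs, 0.26, -0.14 and -0.47 under the others. Leukocyte barcodes without the barcode richest in Reg2 and Reg3 gave 1.40 at 3 days (0.91 with it).

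Without a minimum of 20 UMIs, 5 members were 2-fold higher in free RNA at 3 days and 5 at 7 days, in place of 3 and 3 (against 7.27% and 7.22% of all genes under the same rule), and with the median of all genes set to no change 8 were lower at 3 days in place of 5 (against 3.74%). Among the single genes per enzyme UMI whose reported interval excluded 0, these reversed: acinar Reg1 at 3 days without the 2 barcodes (-0.024), acinar Clps at 3 days with equal weights (0.085) and in the Y-transcript barcodes (0.59), acinar Prss2 at 3 days in the latter (-0.25), acinar Try5 at 7 days without the 2 barcodes (0.39), and at 7 days in free RNA Cela2a and Prss2 over the 11 enzymes (-0.066 and -0.10) and Cela2a in barcodes of over 100 and under 500 UMIs (-0.029). Some ratios whose interval included 0 also changed sign, namely those of Reg3a (free RNA, both times), Reg3d (both compartments and times), Cela2a (free RNA, 3 days), Prss2 (acinar, 7 days) and Reg1 (free RNA, 7 days, up to 0.76). Of 96 values of sums and counts under alternatives 63 stayed within the reported interval (counts, within 1.5 times), as did 250 of 319 of single genes. The denominator of 11 or 15 enzymes shifts every ratio of a contrast by 1 constant. The removal of the 2 barcodes, the 15 enzymes, the range of over 100 and under 500 UMIs, the leukocyte change and the removal of the 2 barcodes richest in a given gene were chosen after seeing the data.

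There were 21, 25 and 14 acinar barcodes, whose spread the counting intervals do not cover, and the number of mice behind each library is not given. No paired analysis was possible because each group is 1 library, and no replicate was left out for the same reason.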
